A study of Homo sapiens with 4 samples.

Results

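The MAF and MiT/TFE transcription factors were followed as BLaER1 cells became macrophage-like. BLaER1 is a line from a human leukaemia of B cells, and a C/EBPα protein fused to part of the oestrogen receptor lets oestradiol start the conversion. The 8 genes were taken by symbol from the 58302 gene rows of the deposited table: MAF, MAFF, MAFG, MAFK, MITF, TFEB, TFEC and TFE3. All 8 were found, each on 1 row. Total RNA was sequenced in 4 libraries. The 2 differentiated libraries came from cells that received IL-3, M-CSF and 100 nM oestradiol over 5 to 6 days. The 2 undifferentiated libraries came from the same line, fusion included, in RPMI medium with serum. The labels do not say whether both libraries of a stage are from separate cultures, so p-values reflect the spread of these libraries alone, and that spread may be technical. All 8 macrophage markers were called higher, by the test described below, with a summed TPM of 753.9 and 843.2 in differentiated and 8.09 and 6.22 in undifferentiated libraries. Of these, 7 averaged below 1 TPM before differentiation and entered the test through the differentiated libraries; all 8 were also called with no filter. All 8 B lineage markers were called lower, with sums of 12.7 and 14.4 TPM against 368.4 and 233.9 TPM in undifferentiated libraries. Over all genes tested, 18.6% were called higher and 22.8% lower. Fewer B lineage markers were called with a differentiated library left out, where calls over all tested genes fell too. The median log2 difference of these markers was -2.74, and -2.70 and -2.84 without differentiated replicate 1 and 2.

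MAF proteins bind DNA through a basic region and a leucine zipper, and recognise long elements built around an AP-1 or CRE core. Large MAF proteins such as MAF carry an activation domain, and MAF is known in macrophages, T helper cells and myeloma. The small MAF proteins MAFF, MAFG and MAFK lack that domain and pair with CNC factors such as NFE2L2 or with the repressors BACH1 and BACH2. The MiT/TFE proteins bind E-box elements as homodimers or as heterodimers with each other, through a basic helix-loop-helix and leucine zipper. TFEB and TFE3 activate lysosomal and autophagy genes when they leave the lysosome surface for the nucleus, MITF is needed by melanocytes, osteoclasts and mast cells, and TFEC is known in mouse mainly from macrophages.

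The DNA letters that these proteins read are shown first, in promoters of the genes described below. Promoter windows came from RefSeq (GRCh38.p14), and the 250 bases before each start were searched on both strands. Windows were matched for 7 of the 8 genes (not MAFK), 13 windows in all. The letters TCACGTGA, the core of the element bound by TFEB in lysosomal genes, contain the E-box letters CACGTG and occurred in 0.854% of all 35116 windows. Among the 8 genes they occurred in a single window, of MAFF (chr22:38201770-38201831, plus strand). The CRE letters TGACGTCA, which form the core of the longer type of MAF element, occurred in 1.65% of all windows. They were found in the window of MAF (chr16:79600748-79600809, minus strand), in the MAFF window already named (chr22:38201913-38201974, plus strand) and in the window of the most downstream of the 3 MITF starts (chr3:69936413-69936474, plus strand). Capitals mark the letters searched for.
MAFF, TCACGTGA: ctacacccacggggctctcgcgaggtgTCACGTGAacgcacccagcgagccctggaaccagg
MAF, TGACGTCA: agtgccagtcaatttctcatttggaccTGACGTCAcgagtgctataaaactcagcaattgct
MAFF, TGACGTCA: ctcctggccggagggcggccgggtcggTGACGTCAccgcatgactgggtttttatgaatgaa
MITF, TGACGTCA: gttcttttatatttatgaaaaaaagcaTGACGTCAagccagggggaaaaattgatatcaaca

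The E-box letters CACGTG alone, in 6.34% of all windows, were found in both MAFF windows and in the MAFG window. The M-box letters TCATGTG, an E-box variant read by MITF in pigment genes, were in 2.52% of all windows and in none of the 13. The AP-1 letters TGAGTCA, in 4.20% of all windows, were found in the TFE3 window. The MAF half-site letters TGCTGA, in 4923 of the 35116 windows, were found in the MAF window and in that of the most upstream MITF start. A match describes these letters and shows no binding.

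All 8 genes had higher TPM in both differentiated than in both undifferentiated libraries, as the plot of TPM by library shows. TPM is an abundance per gene length, so levels can be set side by side between genes, and it is scaled to the same sum in every library. Genes that reached 1 TPM in 2 or more libraries were tested with limma on log2(TPM + 1), and 6 of the 8 passed this filter. A gene is termed called where its p, adjusted by Benjamini-Hochberg over the 10180 genes tested, was below 0.05. MAF, MITF, TFEC, TFE3 and TFEB were called higher, MAFG was not called, and MAFF and MAFK were below the filter. Of all genes tested, 41.4% were called, 18.6% higher and 22.8% lower. Between stages, 70% of them showed no overlap, 31% with the differentiated ones higher. Of the 5 called genes, TFEB alone averaged above 1 TPM in undifferentiated cells, and the others passed the filter through the differentiated libraries. Over the whole table, 1125 of the 1890 genes called higher likewise averaged below 1 TPM before differentiation. Of the 2 tested factors that averaged at least 1 TPM before, 1 was called higher, against 765 of 8713 (8.78%) over all tested genes. In such bulk RNA a higher level per cell and more cells with the transcript cannot be told apart.

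**Figure D1:**
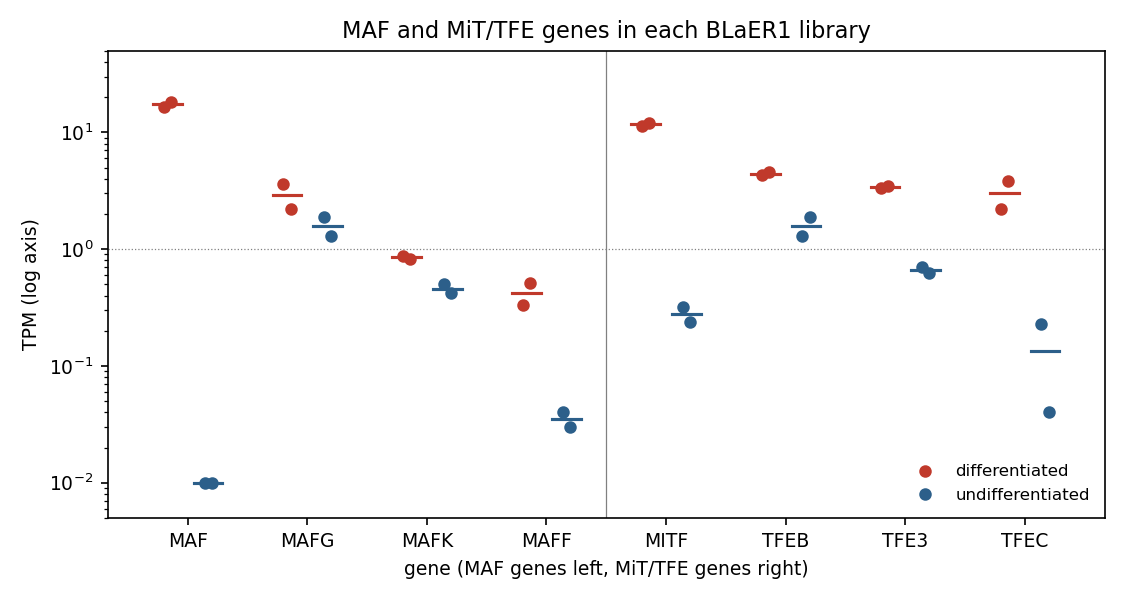
TPM of the 8 genes (log axis) in each library, as points, with the mean of the 2 libraries of a stage as a bar; differentiated libraries are red and undifferentiated blue, and the dotted line marks 1 TPM. Both differentiated points lie above both undifferentiated points for every gene, with MAF at 16.63 and 18.16 TPM against 0.01 TPM in both undifferentiated libraries.

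MAF, the large MAF factor, had the largest difference of the 8. Both differentiated libraries held it at 16.63 and 18.16 TPM, and both undifferentiated libraries at 0.01 TPM, the smallest value above 0 in the table. The undifferentiated level was therefore at the edge of detection. Differentiated cells averaged 17.4 ± 1.08 TPM (SD, n = 2). The log2 difference was 4.19 ± 0.37 (SE, limma, adjusted p = 3.78e-06). By size this difference ranked at place 133 of the 10180 tested genes. MAF lay above 96.0% of the 19817 protein-coding genes in both differentiated libraries, and above 31.5% and 34.3% of them in the undifferentiated libraries. No other gene overlapped MAF in GENCODE release 29.

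Small MAF genes were low at both stages. MAFG, which encodes the most abundant of them here, stood at 3.60 and 2.19 TPM in differentiated and at 1.87 and 1.30 TPM in undifferentiated libraries. The libraries did not overlap, but the gap between the stages was smaller than that between the differentiated libraries. The log2 difference of 0.58 ± 0.36 (SE) was not called (limma, adjusted p = 0.223), with a 95% interval from -0.20 to 1.36. MAFG was called after median-of-ratios scaling (log2 difference 0.73, adjusted p = 0.0443) and after TPM were rescaled over protein-coding genes (1.31, adjusted p = 0.0187). The SIRT7 gene overlaps MAFG by 3054 bases on the same strand in GENCODE and stood at 2.73 and 4.60 TPM in differentiated and 1.52 and 1.58 TPM in undifferentiated libraries, so reads of the shared stretch are uncertain.

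MAFK stood at 0.88 and 0.82 TPM in differentiated and at 0.50 and 0.42 TPM in undifferentiated libraries. MAFF, a small MAF gene known to respond to stress and cytokines, was listed at 0.33 and 0.51 TPM against 0.04 and 0.03 TPM in undifferentiated libraries. Both stayed below 1 TPM in every library and were not tested as deposited. Rescaling over protein-coding genes raised every protein-coding value above 0, while the filter stayed at 1 TPM. MAFF and MAFK then passed the filter and were called, where 34.3% of 11945 tested genes were called higher. The log2 difference was 1.83 for MAFF (limma, adjusted p = 0.00228) and 1.16 for MAFK (adjusted p = 0.0195). With no filter neither was called (adjusted p = 0.123 for MAFF and 0.488 for MAFK). PLA2G6 overlaps MAFF by 4924 bases on the opposite strand and stood at 2.78 and 2.65 TPM in differentiated and 3.06 and 1.19 TPM in undifferentiated libraries. The kit marks strand, but whether the authors counted by strand is not given in the sources used here.

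MITF was the highest MiT/TFE gene in differentiated cells, at 11.40 and 12.14 TPM, against 0.32 and 0.24 TPM in undifferentiated cells. The libraries of a stage lay close together and far from those of the other stage. The means were 11.8 ± 0.523 and 0.28 ± 0.0566 TPM (SD, n = 2), a 42.0-fold ratio of means and a log2 difference of 3.32 ± 0.37 (SE, limma, adjusted p = 1.94e-05), at place 252 of 10180. MITF is transcribed from several starts with different first exons, and gene-level TPM cannot separate them.

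TFEC stood at 2.20 and 3.82 TPM in differentiated and at 0.23 and 0.04 TPM in undifferentiated libraries. It varied most of the called genes within a stage, yet the lowest differentiated library was far above the highest undifferentiated one. The log2 difference was 1.80 ± 0.28 (SE, limma, adjusted p = 0.00021). It was not called with no filter (adjusted p = 0.0702), where 2.35% of 29186 genes were called higher.

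TFE3, named for a site in the immunoglobulin heavy chain enhancer, stood at 3.32 and 3.48 TPM in differentiated and 0.70 and 0.62 TPM in undifferentiated libraries. Its mean was 5.15 times as high in differentiated cells, with a log2 difference of 1.41 ± 0.31 (SE, limma, adjusted p = 0.00268). Without a filter on low values the adjusted p was 0.059. Without differentiated replicate 1 or 2 it was 0.0441 and 0.0458, close to the threshold.

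TFEB stood at 4.28 and 4.57 TPM in differentiated and at 1.29 and 1.89 TPM in undifferentiated libraries. It had the smallest difference of the called genes, a 2.78-fold ratio of means and a log2 difference of 1.08 ± 0.37 (SE, limma, adjusted p = 0.0331). The TFEB call depended on both differentiated libraries and on the filter: the adjusted p was 0.299 without differentiated replicate 1, 0.33 without differentiated replicate 2 and 0.105 without a filter on low values. The antisense gene AL035588.1, which overlaps TFEB in GENCODE, was listed at 0 TPM in all 4 libraries.

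**Figure D2:**
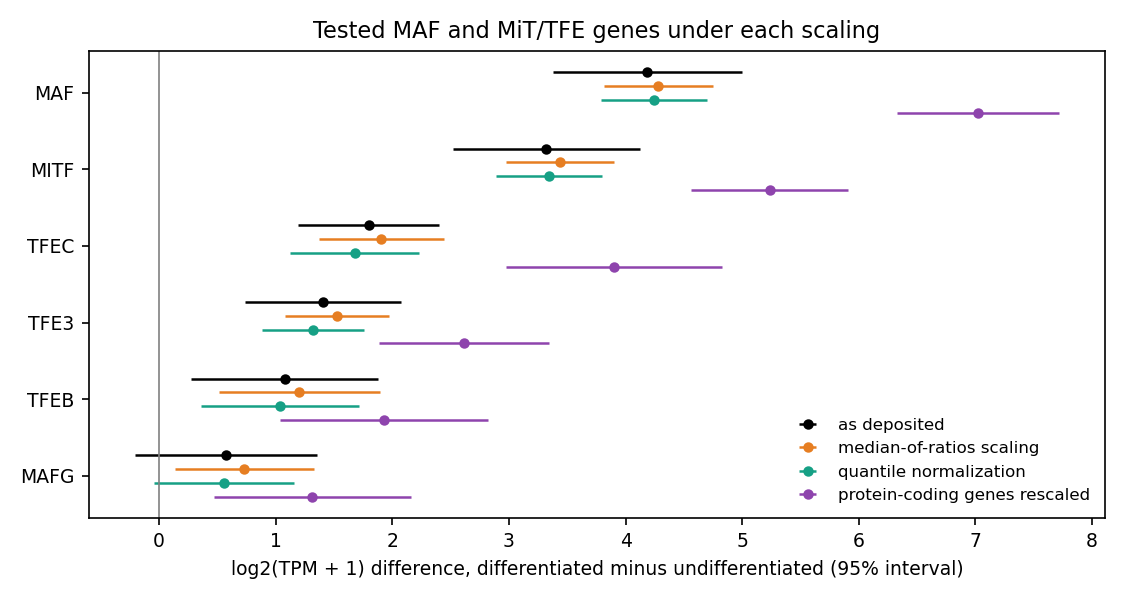
Log2(TPM + 1) difference, differentiated minus undifferentiated, with its 95% interval (limma) for the 6 tested genes, as deposited and under 3 other scalings. Every point lies above 0, and the interval of MAFG reaches below 0 as deposited and after quantile normalization. Rescaling over protein-coding genes, with the pseudocount kept at 1 TPM on the larger values, moves all 6 to the right, MAF to 7.02.

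The scaling bears on these differences. The part of all TPM that fell on protein-coding genes was 12.2% and 13.5% for differentiated and 23.0% and 15.6% for undifferentiated libraries. The median log2 difference of all tested genes was -0.14 as deposited, 0.04 after median-of-ratios scaling and 0.37 after rescaling over protein-coding genes. The 8 genes did not overlap between stages, with the differentiated libraries higher, under each of these 3 scalings. Over all tested genes, 31% did not overlap and were higher as deposited, and no such share was computed for the other scalings. After rescaling over protein-coding genes all 8 were called higher, where 34.3% of 11945 tested genes were, and the TFEB difference was 1.93. This rescaling raised MAF from 16.63 to 136.4 TPM in differentiated replicate 1, while the pseudocount and the filter stayed at 1 TPM. With a pseudocount of 0.1 TPM on the deposited TPM, the difference was 7.31 for MAF, against 7.02 after rescaling, and 1.44 for TFEB. The part of the larger differences and added calls due to the scaling itself was not separated. Of the genes called over the whole table, 65.6% were then higher, against 44.8% as deposited.

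The make-up of each family within a library does not depend on its scaling, and it differed between stages. MAF made up 77.6% and 83.8% of the summed TPM of the 4 MAF genes in differentiated libraries, against 0.413% and 0.568% in undifferentiated libraries. MAFG made up 16.8% and 10.1% in differentiated and 77.3% and 73.9% in undifferentiated libraries. Among the small MAF genes alone, MAFG remained the largest in every library, at 74.8% and 62.2% in differentiated and 77.6% and 74.3% in undifferentiated libraries. Their summed TPM was 4.81 and 3.52 in differentiated and 2.41 and 1.75 in undifferentiated libraries.

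Of the summed MiT/TFE TPM, MITF took 53.8% and 50.6% in differentiated and 12.6% and 8.60% in undifferentiated libraries. TFEB took 20.2% and 19.0% in differentiated against 50.8% and 67.7% in undifferentiated libraries. The largest share thus belonged to MITF in differentiated and to TFEB in undifferentiated cells, although TFEB itself was higher in differentiated cells. MITF stood at 2.66 times the TPM of TFEB in both differentiated libraries, and at 0.248 and 0.127 times in the undifferentiated libraries. The share of TFE3 was 15.7% and 14.5% in differentiated and 27.6% and 22.2% in undifferentiated libraries. The share of TFEC, 10.4% and 15.9% in differentiated and 9.06% and 1.43% in undifferentiated libraries, did not overlap either but was spread widely in the undifferentiated ones. With 2 libraries a stage no exact permutation test can reach a two-sided p under 0.33, and these shares are given untested.

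**Figure D3:**
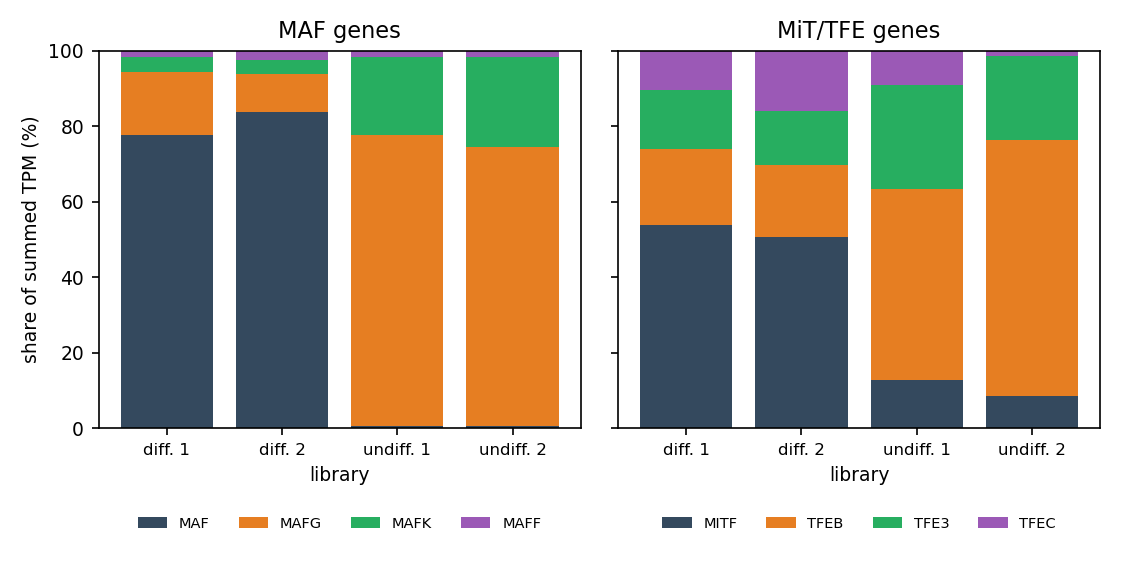
Share of the summed TPM (%) of each family taken by each gene, 1 stacked bar per library, differentiated libraries left of undifferentiated ones; the MAF family is on the left and the MiT/TFE family on the right. MAF takes 77.6% and 83.8% of its family in differentiated libraries, where MITF takes 53.8% and 50.6% of the other, while MAFG and TFEB hold the largest shares in undifferentiated libraries.

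In differentiated cells the order of mean TPM was MAF (17.4), MITF (11.8), TFEB (4.43), TFE3 (3.40), TFEC (3.01), MAFG (2.90), MAFK (0.85) and MAFF (0.42). The libraries of TFE3, TFEC and MAFG overlapped, so their order is not resolved, whereas those of MAF, MITF, TFEB and MAFK overlapped with no neighbour. In undifferentiated cells the order was TFEB (1.59), MAFG (1.585), TFE3 (0.66), MAFK (0.46), MITF (0.28), TFEC (0.135), MAFF (0.035) and MAF (0.01). There TFEB and MAFG overlapped, and TFEC and MAFF met at 0.04 TPM.

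Genes with the most similar pattern were those at the smallest Euclidean distance in log2(TPM + 1), centred on each gene's mean, over the 4 libraries. This is a description over 2 libraries per stage, and many genes lie near. Nearest to MAF were the chemokine gene CXCL16 (distance 0.042), the integrin gene ITGAM (0.0468) and the small Cajal body RNA SCARNA21 (0.0721). Nearest to MITF were ANKRD44 (0.0578), the protease inhibitor gene A2M (0.0657) and SH3TC1 (0.0767). TFEC lay nearest to GIMAP5 (0.0524), to the autophagy receptor gene SQSTM1 (0.0544) and to the glycerol kinase gene GK (0.0761). The nearest to TFE3 was the pseudogene PLEKHM1P1 (0.0377), followed by ENPP2 (0.0475) and CCNDBP1 (0.0679). The nearest to TFEB were the spliceosomal RNA gene RNU2-2P (0.0933), the peroxisome gene PEX16 (0.102) and SPACA6 (0.115). The nearest to MAFG were ATG2A (0.0571), the lipid kinase gene PIP4K2A (0.0616) and TTC31 (0.0949). Between the tested factors themselves, TFEB and TFE3 were closest (0.438) and MAF and MAFG farthest apart (3.65).

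The lysosomal and autophagy genes of the CLEAR network, which the literature gives as TFEB targets, were higher in differentiated cells for most tested genes. Of 46 listed, 43 were tested, and 30 were called higher, 0 lower and 13 not called. Of the listed CLEAR genes, 6 are also in another list described below, MCOLN1, FLCN and CLCN7 among them, and count in both. Their median log2 difference was 1.51, against -0.14 over all tested genes. Among genes that averaged at least 1 TPM before differentiation, and so did not depend on the differentiated libraries to pass the filter, 22 of 34 CLEAR genes (64.7%) were called higher, against 765 of 8713 (8.78%) over all tested genes. The 3 largest differences were those of the proteases LGMN, at 241.38 and 262.79 TPM in differentiated against 1.51 and 1.84 TPM in undifferentiated libraries (log2 difference 6.57), and CTSB (6.15), and of the saposin precursor PSAP (4.73). The number called higher was 11 without differentiated replicate 1, 10 without differentiated replicate 2 and 10 without a filter on low values, and 0 were lower in each case. It was 40 of 44 after rescaling over protein-coding genes, where 34.3% of 11945 tested genes were called higher. Of the 8 factors, TFEB (adjusted p = 0.0331) and TFE3 (adjusted p = 0.00268) are those best known for these genes. Whether their levels bear on the CLEAR genes was not tested.

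The TCACGTGA letters were looked for in the CLEAR genes that had a RefSeq window, 27 of 46, too few for a share over the network to be read. They were found in 6 of the 27. LAMP1, MCOLN1, CTSA, ATP6V0D1 and GAA were called higher with log2 differences of 2.23, 1.88, 2.10, 2.38 and 1.71, and VPS11 was not called (0.87, adjusted p = 0.128). Of the 19 tested CLEAR genes with a window but without the letters, 12 were called higher. The stretches of the 6 genes, chosen because they hold the letters, are shown as the element that TFEB and TFE3 read. They lie at chr13:113297183-113297238 (LAMP1, plus strand), chr19:7522555-7522616 (MCOLN1, plus strand), chr20:45891282-45891334 (CTSA, plus strand), chr16:67481183-67481244 (ATP6V0D1, minus strand), chr17:80101477-80101538 (GAA, plus strand) and chr11:119067756-119067817 (VPS11, plus strand).
LAMP1: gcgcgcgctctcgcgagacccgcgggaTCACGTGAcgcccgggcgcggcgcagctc
MCOLN1: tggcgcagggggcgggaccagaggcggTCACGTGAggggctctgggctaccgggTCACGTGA
CTSA: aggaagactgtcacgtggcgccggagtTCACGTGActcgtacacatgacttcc
ATP6V0D1: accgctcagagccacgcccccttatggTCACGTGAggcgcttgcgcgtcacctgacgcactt
GAA: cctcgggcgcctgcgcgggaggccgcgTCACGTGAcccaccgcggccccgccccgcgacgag
VPS11: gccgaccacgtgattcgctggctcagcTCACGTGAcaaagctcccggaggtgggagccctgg

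The machinery that holds MiT/TFE proteins at the lysosome, mTORC1 with the Rag GTPases and their regulators, gave few calls. Of 19 genes 18 were tested, 2 were higher, 1 lower and 15 not called, with a median log2 difference of 0.16, where 41.4% of all tested genes were called. LAMTOR1, the membrane anchor of the Ragulator complex, was higher at 11.24 and 14.85 TPM against 4.55 and 3.64 TPM in undifferentiated libraries (log2 difference 1.46, limma, adjusted p = 0.00827). LAMTOR5, a subunit of the same complex, was lower at 7.64 and 8.32 TPM against 46.41 and 24.34 TPM in undifferentiated libraries (-1.95, adjusted p = 0.00181). FLCN, folliculin, which acts on RRAGC and RRAGD, was called at the edge of the threshold (log2 difference 0.78, adjusted p = 0.0451). FLCN was not called with any 1 of the 4 libraries left out (adjusted p 0.065 to 0.196). The calls of this list did not hold with a differentiated library left out, where calls over all tested genes fell too. The median of the list was then 0.15 without differentiated replicate 1 and 0.16 without differentiated replicate 2. Without undifferentiated replicate 1 the median of the list was 0.69, and without undifferentiated replicate 2 it was -0.11. Over all tested genes these medians were 0.15 and -0.43. After rescaling over protein-coding genes, where 34.3% of 11945 tested genes were called higher, 8 of 19 were higher and 1 lower.

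Of 13 genes that act on where MiT/TFE proteins sit in the cell, all were tested, 1 was higher, 3 were lower and 9 not called, where 41.4% of all tested genes were called. The direction turned on which undifferentiated library was used. Without undifferentiated replicate 1 the median log2 difference of the list was 0.33, and without undifferentiated replicate 2 it was -0.54. Over all tested genes the median moved the same way, to 0.15 and -0.43. MCOLN1, the lysosomal calcium channel upstream of calcineurin, was higher at 4.34 and 6.37 TPM against 0.72 and 0.68 TPM in undifferentiated libraries (log2 difference 1.88, limma, adjusted p = 0.000954). The nuclear exporter gene XPO1 (-1.69, adjusted p = 0.00844) and the 14-3-3 genes YWHAQ (-2.35, adjusted p = 0.00128) and YWHAE (-1.58, adjusted p = 0.00217) were lower. None of the 3 lower calls held without differentiated replicate 1 or 2, although the log2 differences stayed close (XPO1 -1.64 and -1.74, YWHAQ -2.35 and -2.36, YWHAE -1.57 and -1.60). The MCOLN1 call held in both. After median-of-ratios scaling 5 genes of this list were higher and 4 lower, where 2915 of all 10180 tested genes were higher and 2649 lower. Transcript levels say nothing of where the MiT/TFE proteins were.

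MITF also serves programmes of osteoclasts, melanocytes and mast cells. Of 13 osteoclast genes, 6 were tested and all 6 were called higher, among them DCSTAMP, needed for cell fusion, at 2.32 and 2.38 TPM against 0 TPM in both undifferentiated libraries, and OSCAR, a co-stimulatory receptor, at 1.89 and 3.10 TPM against 0.04 and 0.03 TPM. MMP9 was listed at 1.78 and 1.77 TPM against 0 TPM in both. Of these 6, 4 averaged below 1 TPM before differentiation and passed the filter through the differentiated libraries, and the other 7, ACP5 and CTSK included, were below it. Over all tested genes 18.6% were called higher, and 1125 of those 1890 also averaged below 1 TPM before. CLCN7 and OSTM1 were called as deposited (adjusted p = 0.046 and 0.0449) but not without differentiated replicate 1 or 2. Without a filter on low values 1 of the 13 was called. Of 10 melanocyte genes, TYR, MLANA and OCA2 were listed at 0 TPM in all 4 libraries, and RAB27A, which is used in many cell types, was the single one tested (log2 difference -0.63, adjusted p = 0.191). Of 7 mast cell genes none passed the filter, and the highest value in any library was 0.39 TPM.

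A list of 7 genes held CNC partners of the small MAF proteins and KEAP1, which is no such partner. Of the 7, 5 were tested, KEAP1 included, 1 was higher, 1 lower and 3 not called, a share near the 41.4% called over all tested genes. BACH2, a repressor known in B cells, was lower at 0.19 and 0.47 TPM in differentiated against 2.94 and 1.77 TPM in undifferentiated libraries (log2 difference -1.32, limma, adjusted p = 0.00173), but was not called without differentiated replicate 1 (adjusted p = 0.148) or 2 (0.0665). BACH1, the haem-regulated repressor, was higher at 15.00 and 16.32 TPM against 8.34 and 5.74 TPM (1.07, adjusted p = 0.0389), and likewise lost its call without differentiated replicate 1 (adjusted p = 0.343) or 2 (0.403). NFE2L2, the activator known as NRF2, stood at 14.89 and 17.68 TPM in differentiated and 12.74 and 5.95 TPM in undifferentiated libraries and was not called (adjusted p = 0.136). BACH1 and NFE2L2 each stood above the summed TPM of the small MAF genes in every library. After rescaling over protein-coding genes, where 34.3% of 11945 tested genes were called higher, 5 of the 7 listed genes were higher and 2 lower. Of the 17 listed targets of these pairs, 14 were tested, 6 were higher, 2 lower and 6 not called. Of the 6, HMOX1 and SRXN1 averaged below 1 TPM before differentiation and passed the filter through the differentiated libraries. Among those that averaged at least 1 TPM before, 4 of 12 were higher, against 8.78% of all such genes. The haem oxygenase gene HMOX1 was listed at 94.49 and 107.22 TPM against 0.08 and 0 TPM in undifferentiated libraries (log2 difference 6.61), and the ferritin genes FTH1 (5.38) and FTL (2.37) were higher too. TXNRD1 (-1.91) and NQO1 (-0.73, adjusted p = 0.0455) were lower, and neither was called without differentiated replicate 1 or 2.

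Of 5 genes linked to MAF in myeloma or in cells that make IL-10, 2 were tested. The chemokine receptor gene CCR1 was higher at 11.90 and 13.63 TPM against 0.02 and 0 TPM in undifferentiated libraries (log2 difference 3.77, limma, adjusted p = 7.12e-06). CCR1 too passed the filter through the differentiated libraries, and it was also called with no filter. ITGB7 was not called (0.19, adjusted p = 0.615). CCND2, NUAK1 and IL10 were below 1 TPM in every library and were not tested as deposited. IL10 stood at 0.90 and 0.56 TPM in differentiated and 0 TPM in both undifferentiated libraries. CCND2 stood at 0.06 and 0.51 against 0.01 and 0 TPM, and NUAK1 at 0.03 TPM in both against 0.04 and 0.03 TPM. After rescaling over protein-coding genes, 2 of 3 tested genes of this list were called higher, where 34.3% of 11945 tested genes were.

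**Figure D4:**
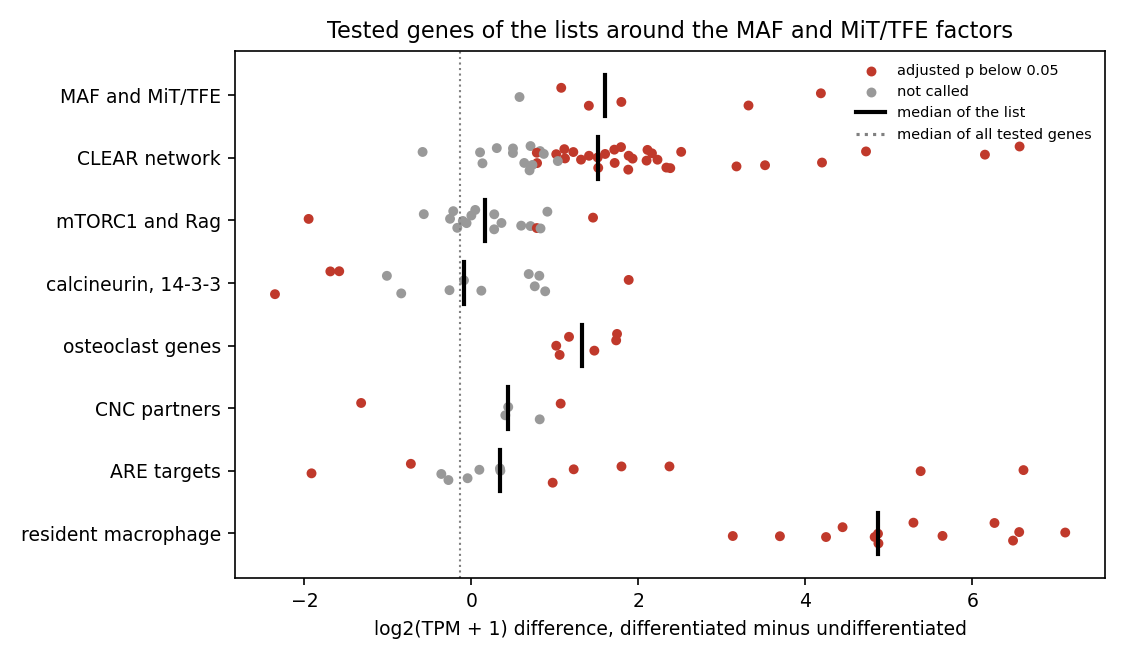
Log2(TPM + 1) difference, differentiated minus undifferentiated, of every tested gene in the lists, 1 point per gene, red where called and grey where not, with the median of each list as a black bar and that of all tested genes (-0.14) as a dotted line. The CLEAR genes lie mostly to the right of it with a median of 1.51, and the mTORC1 and Rag genes lie around it with a median of 0.16.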

How the data were processed

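Trimmomatic, STAR and RSEM are named, without versions, in the submitters' processing notes. The genome build is not given in the sources used here. The kit, from NuGEN, makes stranded libraries of total RNA, per the labels' protocols. The deposited values are TPM in 1 table; TPM keep no sequencing depth, so depth is unknown and no counting error could be computed. Columns were assigned by sample title. Genes at 1 TPM or more in 2 or more libraries were compared on log2(TPM + 1) with limma 3.58.1 in R 4.3.3 (moderated variances with a mean-variance trend, 2 residual and 10.9 prior degrees of freedom, two-sided), adjusted over all 10180 tested genes. The procedure was tested on simulated data moved up to stay above 0 TPM and run without the filter. That test therefore did not cover genes near 0 TPM or the filter. Fold changes on this scale understate the change of low genes. Gene types came from GENCODE release 29, which held 58039 of the 58302 IDs.

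The genes and lists were chosen with earlier results of these data known, so list counts are descriptions. Beside the 8 factors, the named genes are the 3 most similar genes of each tested factor and, in each list that is no marker list, up to 3 called genes with the largest rise and 2 with the largest fall. Others (SIRT7, PLA2G6, AL035588.1, YWHAE, CLCN7, OSTM1, NFE2L2, KEAP1, SRXN1, CLEC10A, untested list genes and genes with TCACGTGA) were chosen after their values were seen. Alternatives were 2 other pseudocounts, 2 other filters, a fit without a trend, 3 scalings, a replicate block and each library left out with the tested genes kept. Other members of these families were not analysed here.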

Additional observations from a re-analysis of the deposited data

How the results depend on the processing

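MAF and MITF were called higher under all 13 alternatives (log2 differences 4.13 to 7.31 and 3.27 to 5.23), and no tested factor changed sign. TFEC and TFE3 were called in 11 of 12 each. Without a filter on low values the unchanged log2 differences of TFEB (1.08), TFEC (1.80) and TFE3 (1.41) were not called. MAFG was called after median-of-ratios scaling (0.73) and rescaling over protein-coding genes (1.31). The factors called numbered 5 as deposited, 2 without a filter, 2 with a filter of 5 TPM (where 2 were tested) and 8 over protein-coding genes. Genes called over all tested genes numbered 4216 as deposited, 1260 without a filter, 2436 with a filter of 5 TPM (4511 tested), and 1271 to 5652 with 1 library left out, the lowest without differentiated replicate 2 (1293 without replicate 1). Genes called over the lists together numbered 30 without a filter against 64 as deposited, and 32 to 79 with 1 library left out (33 and 32 without differentiated replicate 1 and 2). Leaving out 1 library gave 1.04 and 1.11 for TFEB, not called, without a differentiated library, and 0.91 and 1.24, called, without an undifferentiated one; the cause was not tested. Replicate numbers gave no sign of pairing over genes (correlation of deviations -0.0237), which cannot show whether libraries of the same number were prepared together. With the replicate block TFEB was not called (1.08, adjusted p = 0.0701) and 3766 genes were called. Without depth, differences among genes below 1 TPM could not be judged.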

Other observations

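Genes of resident-type macrophages, a list beside the MAF and MiT/TFE factors, were higher in differentiated cells for all tested members. Of 14 listed, 13 were tested and 13 called higher, each below 1 TPM before differentiation, so that they passed the filter through the differentiated libraries. Over all tested genes 18.6% were called higher, and 1125 of those 1890 also averaged below 1 TPM before. The scavenger receptor gene STAB1 reached 133.85 and 140.92 TPM in differentiated libraries, against 0 TPM in both undifferentiated ones, and MSR1 at 85.27 and 92.26 TPM against 0 TPM. The selenium carrier gene SELENOP stood at 99.20 and 123.38 TPM against 0.11 and 0.26 TPM. TIMD4, a marker of some resident macrophages, stayed at 0.31 TPM or below in every library.

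Of 6 T cell markers and 6 granulocyte markers none passed the filter, with at most 0.70 and 0.47 TPM in any library, and CD3D, CD3E and ELANE were at 0 TPM in all 4. Of 6 erythroid and megakaryocyte markers none passed either, with at most 1.11 TPM in any library, for ITGA2B in undifferentiated replicate 2, and with GATA1 and KLF1 at 0 TPM in all 4. Of 5 dendritic cell markers CLEC10A was the single one tested, at 1.06 and 1.68 TPM in differentiated and 0 TPM in both undifferentiated libraries. It passed the filter through the differentiated libraries and was called higher (log2 difference 1.23, limma, adjusted p = 0.000207), where 18.6% of all tested genes were. With no filter CLEC10A was not called (adjusted p = 0.0800).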
